A study of Mus musculus with 6 samples.

Results

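The set described here is 37 genes whose products build and run skeletal muscle fibres, followed through the inguinal subcutaneous white adipose tissue (SC-WAT) of 6 mice. The members were chosen by name, for known roles in skeletal muscle, with earlier results of these data known. Each was found among the 47069 genes of the count files. They comprise 13 fast-fibre isoforms, 9 slow-fibre isoforms, 2 developmental myosins, 5 sarcomere scaffold genes, 2 genes of excitation-contraction coupling, 3 enzymes of muscle energy supply and 3 myogenic transcription factors.

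Sequencing covered inguinal pads from female C57BL/6 mice aged 2 weeks, 3 of them Egr1+/+ and 3 Egr1-/-, with 1 library per mouse and no treatment named. The study used them to find which transcripts depend on the zinc finger transcription factor EGR1 in fat that turns beige. Both copies of Egr1 in the Egr1-/- mice are a germline knock-in allele: a LacZ reporter sits near the start of the gene, and a shifted reading frame removes the zinc fingers, so loss of EGR1 is not limited to fat and extends to muscle. The mice came from several litters, and which of them were littermates is not named. Beyond adipocytes a dissected fat pad holds vessels, nerve and lymph node, and it lies against skin and body-wall muscle.

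A sarcomere is built from thick filaments of myosin, thin filaments of actin carrying the troponins, and scaffold proteins that hold both in place. Fast and slow fibres make different versions of the same parts from separate genes: Myh4, Myh1 and Myh2 encode the IIB, IIX and IIA fast myosin heavy chains, and Myh7 the slow one. In the mouse, most limb and trunk muscles are dominated by fast fibres, and slow fibres are concentrated in postural muscles. Embryonic (Myh3) and perinatal (Myh8) myosins give way to the adult forms in the first weeks after birth. In bulk tissue, fewer muscle cells in the sample and less muscle RNA per cell cannot be told apart.

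4 of the myosin heavy chain genes compared below lie side by side on the forward strand of chromosome 11, in the order Myh2 (67171027 to 67197517, GRCm38), Myh1 (67200052 to 67224575), Myh4 (67238029 to 67260446) and Myh8 (67277124 to 67308634). Myh3 lies ahead of them on the same strand (67078300 to 67102291) and was left out of the comparison of promoters that follows. The promoters of the 4, the 250 bases ahead of the RefSeq start sites (build GRCm38.p6), are shown because these neighbours are read at very different levels within and between fat pads. They lie at chr11:67170777-67171026, chr11:67199852-67200101, chr11:67237562-67237811 and chr11:67276874-67277123, all on the forward strand. Capitals mark the longest run that the 4 promoters share, 14 bases that end 111, 146, 144 and 40 bases ahead of the start site.
Myh2: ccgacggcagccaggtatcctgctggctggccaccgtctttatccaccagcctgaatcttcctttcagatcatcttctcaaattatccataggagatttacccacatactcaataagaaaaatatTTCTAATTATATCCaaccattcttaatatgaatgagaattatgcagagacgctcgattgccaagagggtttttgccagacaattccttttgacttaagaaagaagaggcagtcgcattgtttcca
Myh1: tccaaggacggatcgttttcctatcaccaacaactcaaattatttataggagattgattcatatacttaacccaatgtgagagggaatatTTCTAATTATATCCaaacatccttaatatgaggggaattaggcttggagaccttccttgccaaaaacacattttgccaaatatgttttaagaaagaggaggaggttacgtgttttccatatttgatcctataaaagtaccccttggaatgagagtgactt
Myh4: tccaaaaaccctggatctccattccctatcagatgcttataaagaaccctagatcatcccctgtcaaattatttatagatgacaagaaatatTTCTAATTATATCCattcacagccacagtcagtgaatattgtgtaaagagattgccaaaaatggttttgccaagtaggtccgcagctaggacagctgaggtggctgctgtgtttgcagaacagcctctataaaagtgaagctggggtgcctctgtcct
Myh8: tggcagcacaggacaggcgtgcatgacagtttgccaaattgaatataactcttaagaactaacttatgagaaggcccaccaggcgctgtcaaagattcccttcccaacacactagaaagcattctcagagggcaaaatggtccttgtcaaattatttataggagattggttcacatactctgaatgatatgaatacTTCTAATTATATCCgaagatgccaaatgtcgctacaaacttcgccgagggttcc

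This run was defined from these 4 promoters, so its presence in them was fixed in advance. Searched on either strand, it was in 4 of the 32851 promoters of that length in the RefSeq table (0.0122%), the same 4. How often another run of 14 bases would be missing elsewhere was not tested.

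RefSeq promoters matched 31 of the 37 members, with 37 start sites between them, and none was given for Neb, Myf6, Tnnt3, Tnni2, Actn3 and Myod1. The E-box CANNTG, the letters that MyoD-family factors recognise, stood in 33 of the 37 member promoters (89.2%) and in 66.2% of all promoters. Its form CAGCTG, which is one case of CANNTG and reads the same on both strands, stood in 15 of 37 (40.5%) against 13.0% of all. The letters of the MEF2 site, read on both strands by a factor family that works with MyoD in muscle, stood in the promoters of Ttn and Xirp2, 5.41% of member promoters and 0.508% of all. The CArG box, the site of serum response factor, stood in those of Acta1, Myh4 and Myl3 (8.11% and 1.47%). The TATA letters TATAAA, searched on both strands, stood in 21.6% of member promoters and 12.4% of all. The EGR1 consensus GCGTGGGCG, also searched on both strands, stood in 0 member promoters and in 0.536% of all, which says only that these letters are not in these windows. Creatine kinase M, the enzyme that buffers ATP in the fibre, gives an example at chr7:19410844-19411093, forward strand, with CAGCTG in capitals.
Ckm: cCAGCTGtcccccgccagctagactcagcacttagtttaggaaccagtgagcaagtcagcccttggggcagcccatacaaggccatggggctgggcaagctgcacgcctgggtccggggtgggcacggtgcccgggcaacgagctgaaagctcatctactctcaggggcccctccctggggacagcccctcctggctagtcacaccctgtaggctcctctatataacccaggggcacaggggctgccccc

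Counts on genes totalled 29661984 to 42357981 per mouse, of which mitochondrial genes took 50.0% to 66.3%, leaving 12572968 to 18449896 counts for the rest. The targeted gene Egr1 had 353, 241 and 711 counts in Egr1+/+ replicates 1, 2 and 3 and 103, 84 and 57 in the Egr1-/- replicates, a log2 fold change of -2.19 (SE 0.299, edgeR's quasi-likelihood test, adjusted p = 0.0878). The genotypes did not overlap, and the lower counts were in the mice labelled Egr1-/-. The defining adipocyte genes Adipoq, Plin1 and Fabp4 stood at 551 to 920.2, 272 to 432 and 2980 to 4200 CPM (read counts scaled to library size after TMM normalization, which corrects for library composition) in the 6 pads. Values below are in the order of replicates 1, 2 and 3 of each genotype.

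Every fat pad contained muscle RNA, and its amount differed 19.9-fold between pads, with high and low pads in both genotypes. Summed over the 37 members, the level was 2699, 7523 and 662 CPM in Egr1+/+ mice and 387, 1266 and 7699 CPM in Egr1-/- mice. The highest and the lowest pads were both Egr1-/-, and the second highest was Egr1+/+ replicate 2. In reads, the members held 92739, 225975 and 28559 counts in the Egr1+/+ pads and 12881, 39211 and 238135 in the Egr1-/- pads. As a share of the counts outside the mitochondrial genes this ran from 0.0901% (95% Wilson interval 0.0886 to 0.0917%) in Egr1-/- replicate 1 to 1.77% (1.76 to 1.77%) in Egr1-/- replicate 3, intervals that cover counting error only. The ratio of the genotype means, Egr1-/- over Egr1+/+, was 0.859, and it went from 0.229 without Egr1-/- replicate 3 to 1.86 without Egr1+/+ replicate 2.

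These genes were among the most variable in the fat pads. The range of log2 CPM over the 6 mice had a median of 4.53 across the 34 members that passed the filter on low counts, against 0.71 across the 17667 genes tested. Only 0.396% of tested genes had a range as wide as the members' median, and 20 members stood among the 100 genes with the widest range. The steadiest member was Myh8, with a range of 2.06.

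**Figure D1:**
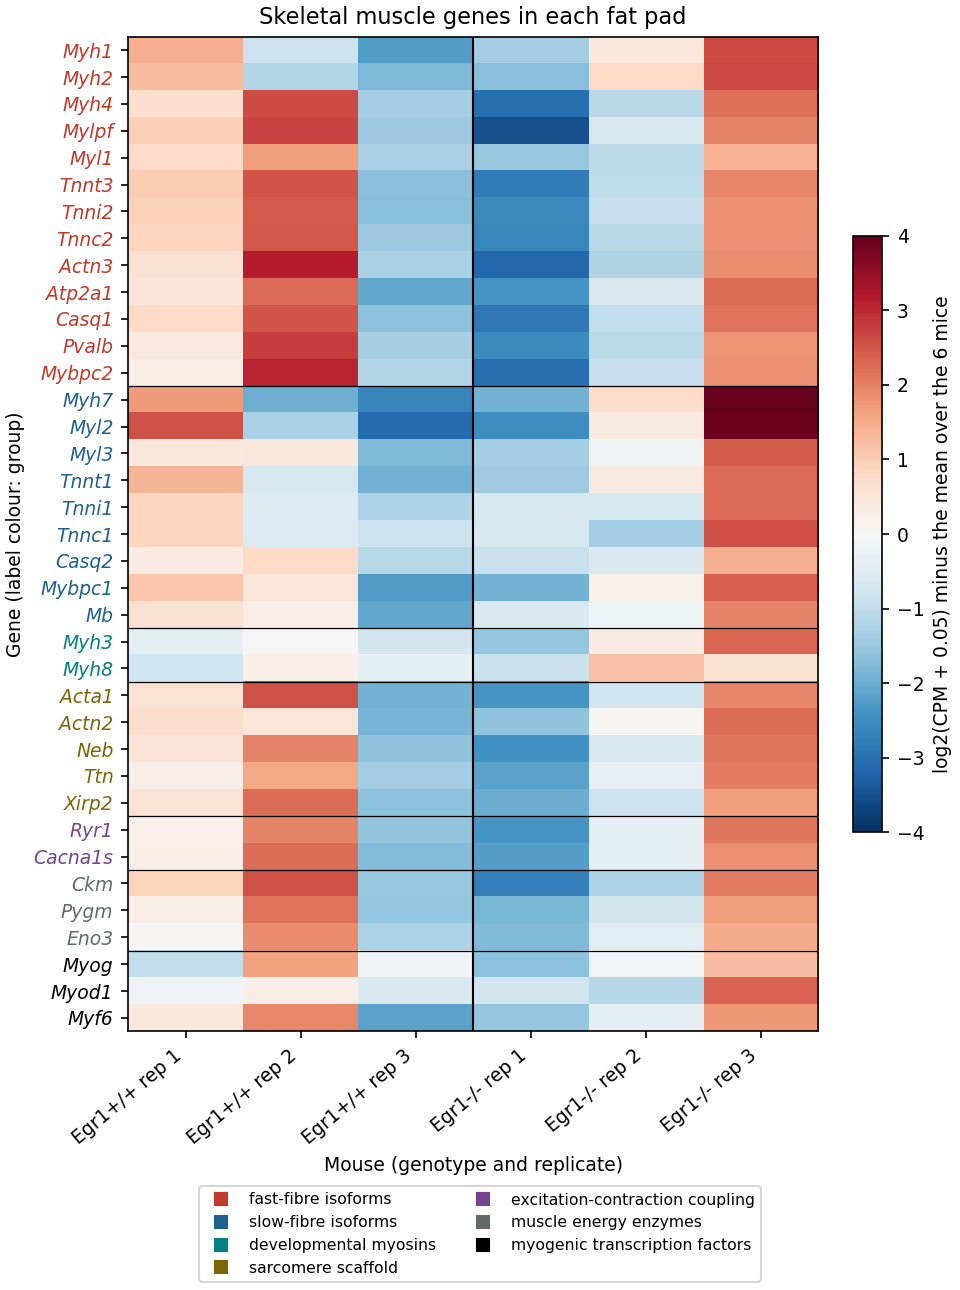
Level of each of the 37 members (rows, coloured by group) in each of the 6 fat pads (columns), as log2(CPM + 0.05) minus the gene's mean over the mice. Most rows are high in Egr1+/+ replicate 2 and Egr1-/- replicate 3 and low in Egr1+/+ replicate 3 and Egr1-/- replicate 1, while Myh1, Myh2 and the slow-fibre rows are higher in Egr1-/- replicate 3 than in Egr1+/+ replicate 2.

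The fast-fibre genes were a large part of this signal. They summed to 1201, 3558 and 243 CPM in Egr1+/+ pads and to 125, 391 and 2850 CPM in Egr1-/- pads. The scaffold genes, with 1256, 3341 and 368 CPM against 226, 767 and 4216 CPM, summed to more except in Egr1+/+ replicate 2. Myh4, the IIB heavy chain of the fastest fibres, was at 409, 1547 and 99.7 CPM in Egr1+/+ pads and at 31.5, 117 and 1161 CPM in Egr1-/- pads. Actn3, the alpha-actinin of fast fibres, followed the same order with 26.9, 157 and 7.17 CPM against 1.98, 7.62 and 64.8 CPM. In both, Egr1+/+ replicate 2 was the highest mouse and Egr1-/- replicate 1 the lowest, and the genotypes overlapped.

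The fast light chains and troponins moved with Myh4. Mylpf, the fast regulatory light chain, was at 79.3, 269 and 15.1 CPM in Egr1+/+ pads and at 3.54, 25.8 and 161 CPM in Egr1-/- pads. Tnnt3, the fast troponin T that ties the complex to tropomyosin, was at 110.2, 314 and 17.1 CPM against 7.95, 27.3 and 215 CPM. Of the 13 fast-fibre genes, 11 were highest in Egr1+/+ replicate 2 and 11 were lowest in Egr1-/- replicate 1. Myl1 (fast alkali light chain), Tnni2 and Tnnc2 (fast troponins I and C), Atp2a1 (the SERCA1 calcium pump), Casq1 (the calcium store of the reticulum), Pvalb (a calcium buffer of fast fibres) and Mybpc2 (fast myosin-binding protein C) also had their highest pad in Egr1+/+ replicate 2, followed by Egr1-/- replicate 3. Their mean CPM over the 6 mice came to between 29.3 for Mybpc2 and 129.5 for Myl1.

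Myh1 and Myh2, the IIX and IIA heavy chains, broke from it. Myh1 was at 134, 26.9 and 10.2 CPM in Egr1+/+ pads and at 18.6, 64.9 and 299 CPM in Egr1-/- pads. Myh2 was at 24.6, 4.46 and 2.88 CPM against 3.15, 17.7 and 63.3 CPM. Egr1+/+ replicate 2, the pad with the most Myh4, was thus below Egr1+/+ replicate 1 and Egr1-/- replicate 2 in both genes, and Egr1-/- replicate 3 was the highest. The promoters of these neighbours of Myh4 are printed above.

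The slow-fibre genes were scarcer and followed another order. Myh7, the slow heavy chain, was at 8.09, 0.599 and 0.348 CPM in Egr1+/+ pads and at 0.63, 4.10 and 42.7 CPM in Egr1-/- pads. Myl2, the slow regulatory light chain, had 121, 6 and 1 counts against 2, 23 and 285 counts. Tnnt1, slow troponin T, was at 6.08, 1.46 and 0.58 CPM against 0.84, 3.0 and 11.3 CPM. All 9 slow-fibre genes were highest in Egr1-/- replicate 3, and 8 were lowest in Egr1+/+ replicate 3, with Tnnc1 lowest in Egr1-/- replicate 2.

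Mybpc1, slow myosin-binding protein C, was the most abundant of the group in CPM with 36.7, 23.6 and 3.50 in Egr1+/+ pads and 4.53, 19.0 and 89.4 in Egr1-/- pads. Mb, the oxygen store myoglobin, was at 3.73, 2.83 and 0.534 CPM against 1.62, 2.16 and 9.67 CPM. Myl3 (slow alkali light chain), Tnni1 (slow troponin I), Tnnc1 (slow troponin C) and Casq2 (the calsequestrin of slow and cardiac fibres) were at 0.129 to 5.33 CPM over the 6 pads, with 4 to 165 counts per mouse, so that their order among the lower pads rests on few reads. Mb shares 64 of its 1492 exon bases with Apol6 on the opposite strand, a gene with 19395 counts over the 6 mice, and the strand setting of the counting is not given, so reads of such partners cannot be told apart.

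The developmental myosins had another pattern again. Myh3, the embryonic heavy chain, had 14, 16 and 13 counts in Egr1+/+ pads and 5, 21 and 86 in Egr1-/- pads. Myh8, the perinatal heavy chain, was at 2.24, 4.69 and 2.99 CPM against 2.1, 8.94 and 6.01 CPM, and it was the 1 member whose highest pad was Egr1-/- replicate 2. Across pads whose Myh4 differed 49-fold, Myh8 differed 4.26-fold.

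The scaffold genes include the longest members, Ttn and Neb. Ttn, the molecular spring titin on chromosome 2 (76703980 to 76982547, GRCm38), was at 924, 2304 and 299 CPM in Egr1+/+ pads and at 180.1, 625 and 3287 CPM in Egr1-/- pads. Its share of member counts went from 30.6% (95% Wilson interval 30.4 to 30.8%) in Egr1+/+ replicate 2 to 49.4% (48.9 to 49.9%) in Egr1-/- replicate 2. Per kilobase of exon, Acta1 (skeletal alpha-actin, the thin filament) was the highest member with a mean of 106 CPM per kb over the 6 mice, followed by Tnnc2 (93.6), Myh4 (93.2) and Mylpf (87.0), which do not differ beyond their spread over the mice. The length used was that of all annotated exons merged. It exceeds the longest transcript by unlike amounts (2074 against 1082 bases for Myl1, 1536 against 1446 for Acta1). The order can therefore change with the length used. Tnnc2 shares 592 of its 800 exon bases with Ube2c on the opposite strand (680 counts over the 6 mice), and 23.4% of the 50-base windows of Myl1 occur in the pseudogene Mylf-ps.

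Acta1 was at 119, 465 and 21.6 CPM in Egr1+/+ pads and at 15.7, 45.7 and 309 CPM in Egr1-/- pads. Neb, the ruler of the thin filament nebulin, was at 166, 457 and 37.8 CPM against 21.5, 74.8 and 509 CPM. Neb lay closest of the members to the summed level, with a root mean square difference of 0.08 on the log2 scale. Actn2, the alpha-actinin of every fibre type, was at 13.7, 11.7 and 2.27 CPM against 2.70, 8.65 and 40 CPM, and so was highest in Egr1-/- replicate 3 and near equal in Egr1+/+ replicates 1 and 2. Xirp2, an actin-binding repeat protein, had its highest pad in Egr1+/+ replicate 2 (104 CPM) and its lowest in Egr1-/- replicate 1 (5.55 CPM).

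The genes of coupling and energy supply peaked in the same pair of pads. Ryr1, the calcium release channel of the reticulum, was at 17.9, 62.2 and 5.24 CPM in Egr1+/+ pads and at 3.03, 11.9 and 69.5 CPM in Egr1-/- pads. Cacna1s, the voltage sensor that opens it, ran from 0.961 CPM in Egr1-/- replicate 1 to 21.7 CPM in Egr1+/+ replicate 2. Ckm, whose promoter is printed above, was at 108, 338 and 20.3 CPM against 8.67, 24.5 and 239 CPM. Pygm (muscle glycogen phosphorylase) and Eno3 (muscle enolase) also peaked in Egr1+/+ replicate 2, at 85.4 and 76.6 CPM.

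The myogenic transcription factors were near the limit of detection. Myf6, the factor kept on in mature fibres, had 13, 35 and 1 counts in Egr1+/+ pads and 2, 6 and 32 in Egr1-/- pads. Myog, which drives fusion and differentiation, had 1, 13 and 4 counts against 0, 3 and 10, where a count of 0 allows up to 3 counts (0.09 CPM). Myod1, which commits cells to muscle, had 4, 5 and 3 counts against 2, 1 and 27. The highest counts were again in Egr1+/+ replicate 2 or Egr1-/- replicate 3, and Myog and Myod1 did not pass the filter on low counts.

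No member passed the test of a difference between the genotypes. Of the 34 members tested, 0 passed an adjusted p of 0.05 by edgeR, as did 3 of all 17667 genes (0.0170% in either direction, 0.0170% higher and 0% lower in Egr1-/-). Those 3, which are not muscle genes of these lists and were not chosen by a rule, were Trim67, Gm8822 and Eif3s6-ps2. At an unadjusted p under 0.05, 0 members stood against 10.7% of all genes, and DESeq2 called 0 members against 2.07% of all genes, with no adjusted p for 4 members. In 0 of the 37 members did the mice of the genotypes separate, against 16.3% of tested genes (8.15% higher and 8.10% lower in Egr1-/-). The lowest adjusted p among members was 0.571, for Myh3 (log2 fold change 1.54, SE 0.834).

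Fold changes were nevertheless large in both directions, with wide intervals. The median log2 fold change, Egr1-/- minus Egr1+/+, was -0.22 over the tested members and 0.0011 over all genes, with 14 members above 0 and 20 below. The median SE was 1.03 for members and 0.202 for all genes. The fast-fibre group had a median of -0.82, with 11 of 13 below 0, from -1.36 for Actn3 (95% interval -4.13 to 1.41) to 1.4 for Myh2 (-0.85 to 3.64). The slow-fibre group had a median of 1.04, with 8 of 8 above 0, from 0.19 for Casq2 to 2.40 for Myh7 (-0.74 to 5.53). Medians were 1.16 for the developmental myosins, -0.13 for the scaffold, -0.22 for coupling and -0.55 for the enzymes, and Myf6 was at -0.24.

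The intervals of all 34 members include 0, and for 27 of them they also include a change of 2-fold in both directions. The signs turned with single mice: without Egr1+/+ replicate 2, 35 of 35 members tested were above 0 with a median of 0.83, and without Egr1-/- replicate 3, 32 of 34 were below 0 with a median of -2.02. At an unadjusted p under 0.05, 15 of 34 members stood in the fit without Egr1-/- replicate 3. Of all 18666 genes tested there, 480 were higher and 710 lower at that threshold, and 0 members passed after adjustment. These p-values set the genotype difference against the spread between mice, which edgeR estimates partly from all genes.

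**Figure D2:**
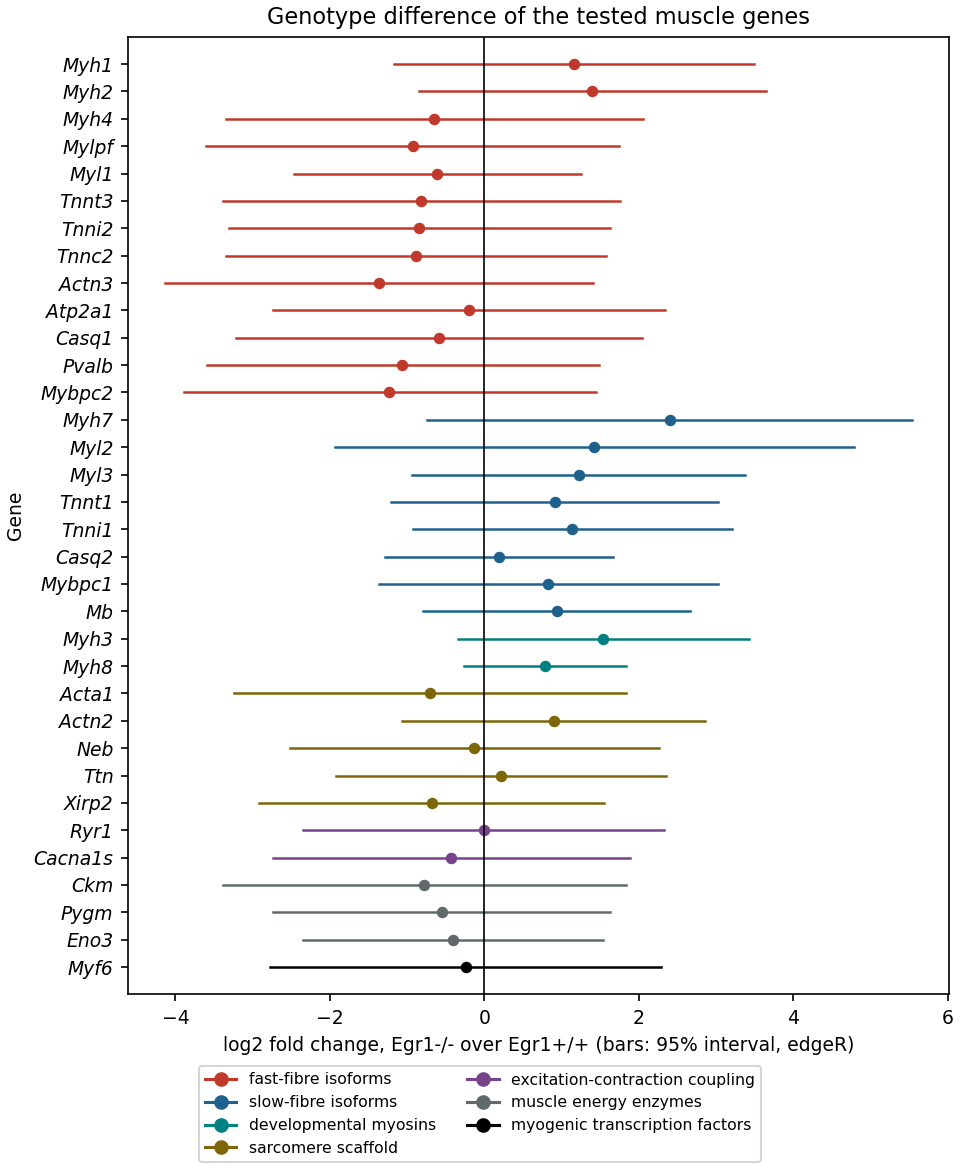
Log2 fold change of the 34 tested members, Egr1-/- over Egr1+/+ (horizontal axis), with bars for the 95% interval of the edgeR fit and colours for the groups. Every bar crosses 0, with the slow-fibre points above 0 (0.19 to 2.40) and 11 of 13 fast-fibre points below it.

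The make-up of the myosin heavy chains was compared as each gene's share of the 6 heavy chains in CPM per kilobase. Myh4 held 72.5, 97.9 and 87.6% in Egr1+/+ pads and 58.9, 58.0 and 75.7% in Egr1-/- pads. Myh1 held 22.6, 1.61 and 8.49% against 33.0, 30.6 and 18.5%, and Myh2 held 3.68, 0.238 and 2.13% against 4.96, 7.43 and 3.48%. For each of these 3 genes, Egr1+/+ replicate 1 stood beside Egr1-/- replicate 3, so the genotypes overlapped, and Egr1+/+ replicate 2 was the extreme in each.

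The slow Myh7 held 1.0, 0.0265 and 0.213% in Egr1+/+ pads and 0.822, 1.42 and 1.95% in Egr1-/- pads. Myh8 held 0.203, 0.152 and 1.34% against 2.01, 2.27 and 0.20%, so the share of perinatal myosin was highest in the Egr1-/- pads with little muscle RNA, followed by the Egr1+/+ pad with least. Myh3 held 0.0335 to 0.335% in all 6. Since reads were short, related myosins can share them: 1612 of the 6032 windows of 50 bases in Myh1, 26.9% of those in Myh2, 18.9% of Myh4, 21.4% of Myh8 and 4.81% of Myh3 occur in another gene, mostly each other, and 22.2% of Myh7 in cardiac Myh6, so these shares are uncertain at least to that extent. They also depend on the length used, all annotated exons merged, with 11772 bases for Myh8 and 8616 for Myh7. The longest transcripts of these have 6149 and 6230 bases, while Myh4 has 6016 by both measures. The shares of Myh8 and Myh7 may thus be understated against Myh4.

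**Figure D3:**
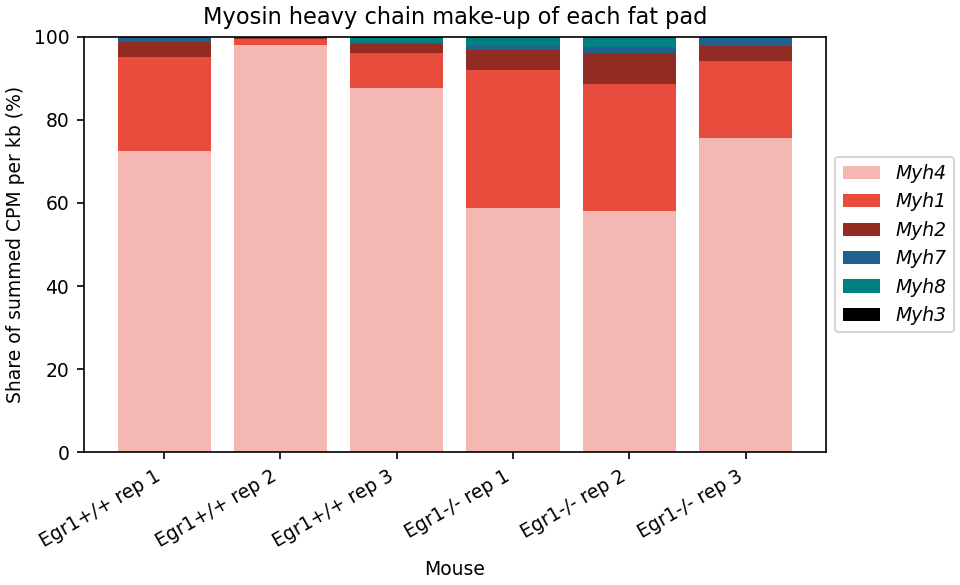
Share of each of 6 myosin heavy chain genes in their summed CPM per kilobase of exon (vertical axis, percent), as 1 stacked bar per fat pad. Myh4 runs from 58.0% in Egr1-/- replicate 2 to 97.9% in Egr1+/+ replicate 2, and Myh1 from 1.61% to 33.0%.

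Ratios of a slow or developmental gene to its fast counterpart were tested between the genotypes, 7 in all. A ratio within a pad is not scaled by the amount of muscle, but it can still differ between pads rich and poor in muscle RNA: Myh8 had 30.0 to 76.8 counts per 1000 of Myh4 in the 3 pads with least and 3.03 to 5.48 in the other 3. The log2 ratio of Myh7 to Myh4 counts was -5.66, -11.29 and -8.11 in Egr1+/+ pads and -5.61, -4.82 and -4.76 in Egr1-/- pads. The genotypes did not overlap in this ratio, with a difference of 3.29 (exact two-sided permutation test, p = 0.1, the smallest that 3 mice against 3 allow, adjusted p = 0.35 over the 7 ratios). The nearest mice, Egr1+/+ replicate 1 and Egr1-/- replicate 1, had 19.8 and 20 Myh7 counts per 1000 of Myh4, and without Egr1+/+ replicate 2 the difference was 1.82.

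In the other 6 ratios the mice of the genotypes overlapped. The log2 difference was 2.04 for Tnnt1 to Tnnt3, 1.74 for Tnni1 to Tnni2 and 2.01 for Myh3 to Myh4 (exact permutation p = 0.2 for each). It was 1.91 for Myh8 to Myh4 (exact p = 0.3), 1.60 for Tnnc1 to Tnnc2 (exact p = 0.4) and 1.09 for Casq2 to Casq1 (exact p = 0.5), and adjusted p over the 7 was between 0.35 and 0.5. Without Egr1+/+ replicate 2 the differences were 0.97 for Tnnt1 to Tnnt3, 0.68 for Tnni1 to Tnni2, 0.49 for Tnnc1 to Tnnc2, 0.51 for Casq2 to Casq1, 1.23 for Myh3 to Myh4 and 1.21 for Myh8 to Myh4. Egr1-/- replicate 1 also weighed on Casq2 to Casq1 (0.39 without it) and Tnnc1 to Tnnc2 (1.04), and Myh8 to Myh4 went from 1.23 without Egr1-/- replicate 2 to 2.87 without Egr1+/+ replicate 3 and 3.17 without Egr1-/- replicate 3, where Casq2 to Casq1 was 1.73. Egr1+/+ replicate 2 had the lowest of all 6 mice in each of the 7 ratios. Summed over the groups, the slow-fibre genes stood at 52.6, 9.43 and 26.4 CPM per 1000 CPM of fast-fibre genes in Egr1+/+ pads and at 75.5, 80.1 and 62.0 in Egr1-/- pads. These sums separate by genotype too, with 52.6 against 62.0 at the nearest, and being sums over the members they were not tested.

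**Figure D4:**
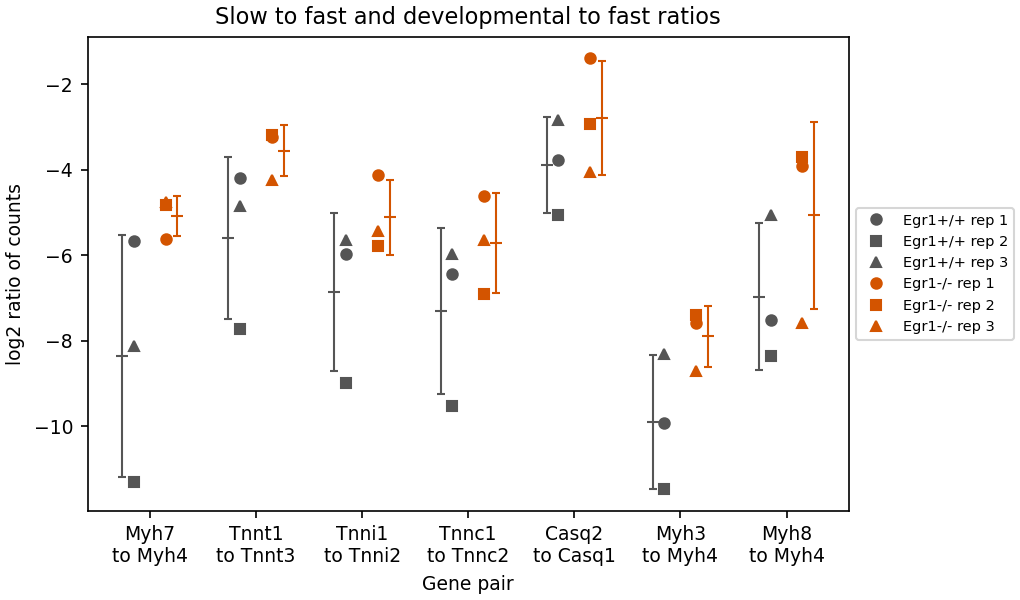
Log2 ratio of the counts of a slow or developmental gene to a fast one (vertical axis) for 7 gene pairs, with a marker per mouse in grey (Egr1+/+) and orange (Egr1-/-) and bars for the mean and SD of 3 mice. Egr1+/+ replicate 2 is the lowest point of each pair, and the genotypes separate in Myh7 to Myh4, where the nearest points are -5.66 and -5.61.

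The pair of pads richest in muscle RNA, Egr1+/+ replicate 2 and Egr1-/- replicate 3, had near-equal sums (7523 and 7699 CPM) and different isoforms. This pair was picked after the values had been seen, with 1 mouse of each genotype, so the folds between them describe these mice and no test was made. All 9 slow-fibre genes were higher in Egr1-/- replicate 3, with a median of 7.75-fold, from 1.57-fold for Casq2 to 71.3-fold for Myh7, 46.1-fold for Myl2 and 10.1-fold for Tnnc1. Of the 13 fast-fibre genes, 11 were lower, down to 0.413-fold for Actn3, while Myh1 was 11.1-fold and Myh2 14.2-fold higher.

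Members that fibre types share lay on both sides of equal in these mice. In Egr1-/- replicate 3 relative to Egr1+/+ replicate 2, Ttn was 1.43-fold, Ryr1 1.12-fold and Neb 1.11-fold, while Cacna1s was 0.761-fold, Ckm 0.707-fold, Xirp2 0.692-fold and Acta1 0.665-fold. These lower folds were near the median of the fast-fibre genes, 0.685-fold. Actn2 stood apart from the scaffold at 3.43-fold, and Atp2a1 was the fast-fibre gene nearest to equal, at 0.993-fold.

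**Figure D5:**
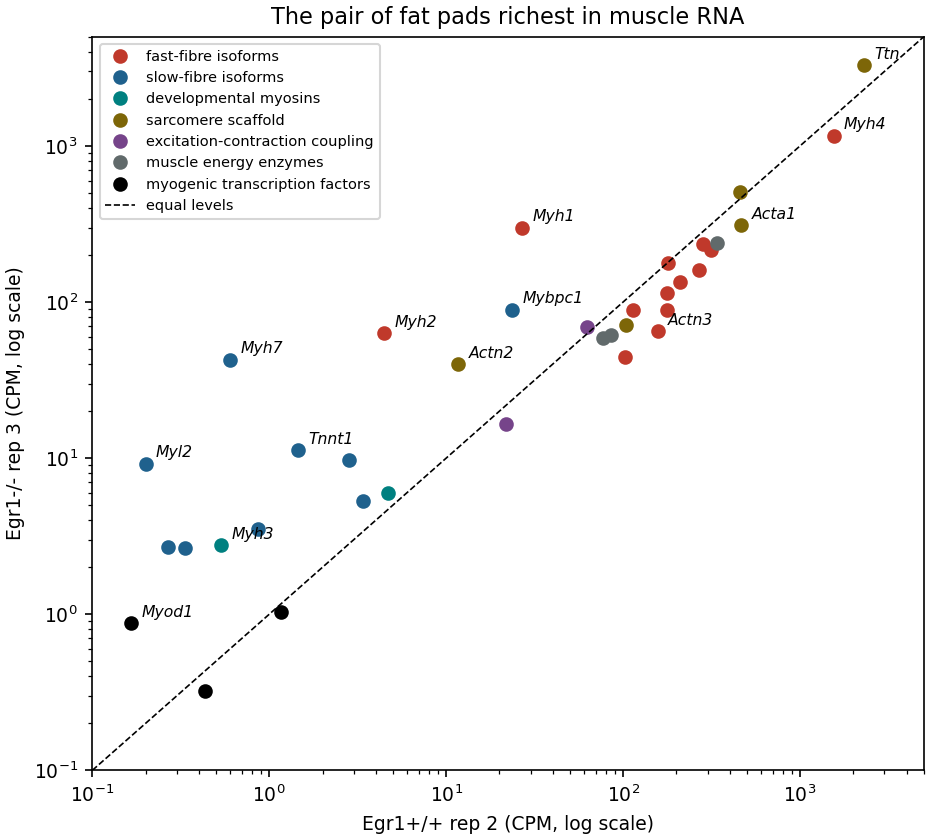
CPM of the 37 members in Egr1+/+ replicate 2 (horizontal) and Egr1-/- replicate 3 (vertical), both on log scales, coloured by group, with a dashed line at equal levels. Slow-fibre genes, Myh1 and Myh2 lie above the line by up to 71.3-fold (Myh7), and most fast-fibre genes lie just below it.

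Other muscle genes, 65 from 5 lists, were likewise highest in Egr1+/+ replicate 2 (39 genes) or Egr1-/- replicate 3 (21 genes). Of the 55 tested, 0 passed the threshold (background 0.0170%), with a median log2 fold change of -0.23, 12 above 0 and 43 below. In the Z-disc, M-band and thin filament list, Tpm1, Tpm2 and Myom1 had log2 fold changes of -0.90, -0.49 and -0.48, with Tpm2, a tropomyosin, at 90.4, 211 and 21.7 CPM in Egr1+/+ pads and 19.2, 29.3 and 182 CPM in Egr1-/- pads. Among genes of the membrane and calcium handling, dystrophin (Dmd) was at 29.0 to 49.3 CPM, a narrow range, while Trdn, the triadin that anchors the calcium store, was at 2.55 to 55.7 CPM. Srl, sarcalumenin of the reticulum, was at 9.42 to 57.7 CPM.

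Genes of the neuromuscular junction and of satellite cells were low. Chrnb1, a subunit of the acetylcholine receptor, was at 2.48 to 2.96 CPM in Egr1+/+ pads and 2.29 to 2.46 CPM in Egr1-/- pads, without overlap (log2 fold change -0.21, SE 0.203, edgeR adjusted p = 0.768). Chrna1, the receptor's alpha subunit, was at 0.36 to 2.06 CPM and Musk, the kinase that clusters it, at 0.291 to 0.78 CPM. The satellite cell factor Pax7, the other gene of the 65 whose genotypes did not overlap, had 2, 5 and 1 counts against 0, 0 and 0, where a count of 0 allows up to 3 counts, so no difference was detectable at this depth. Genotypes thus did not overlap in 2 of these 65 genes, against 16.3% of all tested genes. Mstn, which restrains muscle growth, was at 0.116 to 1.70 CPM and Pax3, another myogenic progenitor factor, at 0.194 to 0.45 CPM. Of the energy genes, Pfkm (muscle phosphofructokinase) was at 17.4 to 46.4 CPM, Phka1 (phosphorylase kinase) at 11 to 19.9 CPM and Pgam2 (muscle phosphoglycerate mutase) at 0.54 to 21.2 CPM.

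Marker sums of adipocytes, smooth muscle and epithelium did not follow the muscle level, while Des and Actc1, which skeletal muscle also makes, peaked in the pads rich in it. The 8 adipocyte genes summed to 5888 to 6272 CPM in Egr1+/+ pads and 4690 to 5687 CPM in Egr1-/- pads, which do not overlap and differ 1.34-fold at most. Fabp4 was the largest part of this sum, with a mean of 3679 CPM over the 6 mice. The 8 genes went both ways, 5 with a log2 fold change below 0 and 3 above (edgeR, lowest adjusted p = 0.256). The genotypes did not overlap in Adipoq and Lep, lower in Egr1-/-, and in Lipe, higher, and overlapped in the other 5. Over all tested genes, 16.3% did not overlap. The 8 smooth muscle genes, led by Myh11 (58.0 to 109 CPM) and Acta2 (33.5 to 59.4 CPM), summed to 164 to 261 against 167 to 214 CPM, and within them Des, the desmin of smooth and skeletal muscle, peaked at 56.7 and 59.1 CPM in the pair of pads rich in muscle RNA. The 6 cardiac genes summed to 4.80 to 24.0 CPM against 2.71 to 12.6 CPM. Nppa had 0 counts in all 6 mice (which allows up to 3 counts each), Tnni3 was at 0.466 to 1.32 CPM, and Tnnt2 was at 0.786 to 1.33 CPM in Egr1+/+ pads and 0.097 to 0.60 CPM in Egr1-/- pads, without overlap (edgeR adjusted p = 0.325). Actc1, the cardiac actin that young skeletal muscle also makes, was at 8.32, 21.9 and 2.41 CPM in Egr1+/+ pads and at 0.72, 1.45 and 11.3 CPM in Egr1-/- pads, and so was highest in Egr1+/+ replicate 2, next in Egr1-/- replicate 3 and lowest in Egr1-/- replicate 1, as most fast-fibre genes were.

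Markers of skin and mammary epithelium, tissue at the border of this fat pad, summed over 7 genes to 1.14, 10.3 and 17.8 CPM against 12.9, 6.29 and 5.53 CPM. Epcam was at 0.64 to 3.40 CPM, Krt14 at 0.0291 to 2.74 CPM and Krt1 at 0 to 6.38 CPM, and the highest sum was in an Egr1+/+ pad low in muscle RNA. The part of these cell types in the muscle values was not tested.

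The profile most like the summed level over the 6 mice was sought among 17610 tested genes that are not members, by the root mean square difference of centred log2 CPM. The nearest 10 were Mypn (0.22), Klhl41 (0.24), Cacng1 and Eef1a2 (0.26 each), Myom2 (0.27), Mylk2 and Klhl31 (0.28 each), Lmod3 and Trdn (0.29 each) and Nrap (0.31), while the median gene lay at 1.66 and a flat profile at 1.64. Of these, 9 were already in the other muscle lists, and Eef1a2, a translation elongation factor, was not. Eef1a2 was at 4.72, 15.7 and 0.928 CPM in Egr1+/+ pads and at 0.51, 1.55 and 15.6 CPM in Egr1-/- pads. Among the nearest 50, with differences up to 0.54, 18 were in the muscle lists.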

How the data were processed

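RNA from 6 fat pads was depleted of ribosomal RNA and made into strand-specific libraries. The authors mapped the reads with TopHat2 and Bowtie2 to mouse build mm10 (GRCm38.p4 in the submitters' processing notes), assigned them to GENCODE genes with featureCounts, and deposited raw counts per gene, without normalization. The strand and multimapping settings are not given in the sources used here, and the study's methods and the sample records differ on whether reads were single-end or paired-end. Genotypes were taken from the sample records.

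Gene names and coordinates came from GENCODE M21 of GRCm38 by Ensembl identifier, which named 46574 of 47069 genes. The genotypes were compared with edgeR 4.0.16 under R 4.3.3 (TMM, filterByExpr, quasi-likelihood test), with Benjamini-Hochberg adjustment over 17667 genes at 0.05. CPM are TMM-normalized, and log2 CPM used a prior count of 2. Isoform ratios used counts plus 0.5 and an exact permutation test. In simulated data with 200 changed genes among 17667, the test recovered 67.5%, 97.0% and 100% of changes of 1, 2 and 3 on the log2 scale, with 2.88%, 3.48% and 5.66% of calls false. The changed genes all averaged above 1 CPM. Each simulated gene had the spread between mice typical of its level, without differences between genes of like level. Recovery in the real data can therefore be lower. Recovery at the spread of the members, whose median SE was 1.03 against 0.202 for all genes, was not tested. Totals of 29661984 to 42357981 counts per mouse set the counting error, to which the spread between mice adds.

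Alternatives were DESeq2 1.42.0, limma 3.58.1 (voom), RLE, upper-quartile and library-total scaling, no filter on low counts, no mitochondrial genes, a replicate block, and leaving out each mouse. Members and lists were chosen with earlier results of these data known. All members are named. From the other muscle lists the 3 tested genes of highest mean CPM per list are named, from the cardiac, smooth muscle, adipocyte and epithelial lists up to 3 defining genes, and the 10 nearest profiles. Other genes named were chosen after their values were seen.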

Additional observations from a re-analysis of the deposited data

How the results depend on the processing

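Under RLE, upper-quartile and library-total scaling, without mitochondrial genes, and with DESeq2 and limma-voom, 0 members passed the threshold, and the median log2 fold change of the members stayed between -0.39 and -0.21. Library totals moved the median of all genes to -0.15, and relative to it the members' median was -0.06 and Egr1 was at -2.24. Without the filter on low counts, 22 of 37 members passed (9 higher, 13 lower) and 2 other muscle genes. In that fit 243 genes were higher and 309 lower among the 38261 tested. There the fit took the variation of each gene from all genes together (infinite prior degrees of freedom, against 5.07 with the filter). Egr1 passed the threshold with library totals (-2.39), without the filter (-2.18) and with DESeq2 (-2.19), and leaving out each mouse gave -2.39 to -1.84, with a pass without Egr1-/- replicate 1 (-2.35, edgeR adjusted p = 0.0484). Signs turned for Ryr1 with library totals (0.02) and without the filter (0.03), for Ttn with limma-voom (-0.28) and for Myf6 with limma-voom (0.21), and the cause was not tested.

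The labels do not say whether the replicate numbers pair the mice, and the main test did not treat them as pairs. Deviations of same-numbered mice from their genotype means correlated at -0.0888, 0.106 and -0.126 over 17667 genes. With so few mice, these values cannot show whether any were littermates. With the replicate number as a block, 0 members passed, the members' median was -0.88, Egr1 was at -2.14, and Ttn (-0.72) and Casq2 (-0.11) turned sign.

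With each mouse left out, 0 members passed in all 6 fits, the members' median went from -2.02 to 0.83 and that of the other muscle genes from -1.48 to 0.68. The sign turned for 20 members without Egr1+/+ replicate 2, 12 without Egr1-/- replicate 3, 6 without Egr1-/- replicate 1, 4 without Egr1-/- replicate 2, 2 without Egr1+/+ replicate 3 and 0 without Egr1+/+ replicate 1. It held for Myh3 (0.01 to 2.07) and Myh8 (0.30 to 1.18). The log2 fold changes of the others ranged as follows: Acta1 -2.71 to 0.82, Actn2 -0.69 to 1.41, Actn3 -3.72 to 0.55, Atp2a1 -2.31 to 1.17, Cacna1s -2.07 to 1.07, Casq1 -3.02 to 0.76, Casq2 -0.94 to 0.61, Ckm -3.22 to 0.51, Eno3 -1.70 to 0.83, Mb -0.31 to 1.44, Mybpc1 -0.85 to 1.48, Mybpc2 -3.33 to 0.76, Myf6 -1.98 to 1.14, Myh1 -0.45 to 2.78, Myh2 -0.03 to 2.94, Myh4 -3.20 to 0.78, Myh7 -0.35 to 5.08, Myl1 -2.07 to 0.14, Myl2 -1.64 to 5.01, Myl3 -0.68 to 1.74, Mylpf -3.04 to 0.43, Neb -2.19 to 0.99, Pvalb -3.13 to 0.67, Pygm -2.17 to 0.83, Ryr1 -1.92 to 1.29, Tnnc2 -3.04 to 0.35, Tnni1 -0.72 to 2.06, Tnni2 -2.88 to 0.39, Tnnt1 -0.49 to 2.33, Tnnt3 -3.05 to 0.39, Ttn -1.54 to 1.16, Xirp2 -2.42 to 0.56. The summed level ratio ranged from 0.229 to 1.86. The 7 isoform ratios kept a positive difference in each fit, lowest without Egr1+/+ replicate 2 in 6 of them (0.49 to 1.82) and without Egr1-/- replicate 1 in Casq2 to Casq1 (0.39).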

Other observations

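Among the 50 profiles nearest to the summed muscle level, and outside the muscle lists, Cmya5 (myospryn of the sarcomere) was at 32.2, 86.0 and 10.1 CPM in Egr1+/+ pads and at 8.43, 16.1 and 84.3 CPM in Egr1-/- pads. Rpl3l, a muscle version of a ribosomal protein, was at 2.1, 4.03 and 0.325 CPM against 0.36, 0.549 and 2.65 CPM. Smyd1, a methyltransferase of muscle, was at 1.78, 5.09 and 0.534 CPM against 0.36, 0.775 and 4.24 CPM. These genes were named after their values were seen.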
